A study of Mus musculus with 2 samples.

Results

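The 8 genes described here, *Cd69*, *Cd5*, *Itm2a*, *Egr1*, *Egr2*, *Egr3*, *Nr4a1* and *Nr4a3*, are induced when the T-cell receptor (TCR) of a DP thymocyte, which bears both CD4 and CD8, is engaged during selection. They were chosen by symbol from the 21041 genes of the deposited table, and all 8 are listed there. Of the 8, 7 had a lower value in the *Cxxc1*-deficient library than in the WT library, beside 59.9% of all genes, and 3 of the 8 did under the strongest rescaling of the libraries that was tried. The surface molecules *Cd5* and *Itm2a* and the transcription factor gene *Egr1* were 2.12-fold, 2.62-fold and 3.25-fold lower. Of all genes of their level, with a mean of both libraries from 100 to under 500, 54.9% were at least 2-fold lower. The log2 ratio of *Cd5* differed by -0.02 from the median of these genes. *Nr4a1*, which encodes the orphan nuclear receptor Nur77, was 2.10-fold higher. Its WT value of 39 was under 54, the level that 95% of olfactory receptor genes did not exceed in that library. Thymocytes are not known to use these genes, of which the highest had 95 in the *Cxxc1*-deficient library against 82 for *Nr4a1*.

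The data are mRNA-seq of 2 libraries, 1 per genotype. WT mice carry the floxed allele, *Cxxc1* fl/fl, without Cre according to the methods, whereas the label of this library reads wild type. The *Cxxc1*-deficient mice are *Cxxc1* fl/fl h*CD2*-Cre in the methods, in which human CD2 regulatory sequence drives Cre from the earliest thymocyte stages and in other immune cells, and the label of their library reads Cxxc1+/-. The methods give mice a few weeks old unless otherwise stated and a C57BL/6 background after backcrossing of a strain 129 allele, but not how many mice were used for these libraries or how the DP cells were isolated for them. By the methods both share the floxed allele, and no treatment is named. Each deposited number is a normalised expression value rounded to a whole number, and its unit is not given in the sources used here. With 1 library per genotype differences cannot be checked against replicates, genotype and library cannot be told apart, and no p-value is given. The only error that the files give is that of rounding by 0.5, which is printed as an interval of the fold. Read numbers are unknown, so counting error is not included.

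Positive selection begins when the TCR of a DP thymocyte binds self-peptide on MHC of the thymic stroma. Signals through ERK and serum response factor act on the *Egr* genes, and calcium signals act through NFAT and MEF2 factors on the *Nr4a* genes. Within hours the cells also place CD69 on their surface and raise CD5, and the surface level of CD5 follows the strength of the signal that a thymocyte has received. The *Egr* and *Nr4a* genes are immediate early genes, which many stimuli other than the TCR can induce for a short time.

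Summed over genes, the deposited values came to 1551994 in WT against 981677 for the *Cxxc1*-deficient library, and the median gene had 36 in each. The targeted gene, *Cxxc1*, had 91 in WT against 50 in the *Cxxc1*-deficient library, a ratio of 0.549. Of the genes with a mean from 50 to under 100, 26.7% had a ratio at least as low, and the ratio of *Cxxc1* was 1.10 under the strongest rescaling described below. By the methods Cre removes part of the gene, and the exons that the deposited value covers are not given. By quantitative PCR the paper found almost no *Cxxc1* mRNA in *Cxxc1*-deficient DP cells, and by western blot it found the protein lost. The part of the deleted exons, or of the genotype that the label gives, in this ratio was not tested. DP identity was checked with 10 marker genes, all of which were detected in both libraries. Their summed value was 43576 in WT against 14172 in the *Cxxc1*-deficient library, and 9 of the 10 were at least 2-fold lower, or 4 of the 10 under the strongest rescaling described below. Their median log2 ratio was -1.71, beside -1.61 for all genes with a mean of both libraries of 500 and over. In bulk RNA, fewer cells of a type and less RNA per cell cannot be told apart. *Cd4* had 2728 in WT against 1257 in the *Cxxc1*-deficient library, and *Rag1*, which encodes a subunit of the recombinase, had 20778 and 5058. Olfactory receptor genes, which thymocytes are not known to use, give the level that a silent gene reaches in these libraries. The median of 1102 such genes was 22 in WT against 24 in the *Cxxc1*-deficient library, and 95% of them did not exceed 54 and 57.

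The comparison of genotypes asks which genes of DP thymocytes have another mRNA level when Cxxc1 is deficient, Cxxc1 being a subunit of the Setd1 complex that trimethylates H3K4. Over all 20125 genes above 0 in at least 1 library, the log2 ratio of the *Cxxc1*-deficient to the WT value had a median of -0.20. The ratio depended on level. Its median was 0.00 for 13996 genes with a mean of both libraries under 50, -0.53 for 3657 genes from 50 to under 100, -1.06 for 2308 genes from 100 to under 500, and -1.61 for 164 genes of 500 and over. The selection response genes other than *Nr4a1* and *Nr4a3*, and the listed genes where stated, are therefore set beside all genes of their own range. Because of this tilt the scaling of the libraries matters. Of 4 rescalings tried, the strongest sets equal the medians of genes with a mean of at least 100. It multiplies the *Cxxc1*-deficient values by 2.0 and moves the median log2 ratio of all genes to 0.79. Its values are given beside many of the results that follow. At least 2-fold lower were 3 of the 8 selection response genes, beside 17.4% of all genes and 54.9% of genes from 100 to under 500, the range in which all 3 lie. At least 2-fold higher was 1 of the 8, beside 5.89% of all genes. Over the 8 genes the log2 ratio had a median of -0.80, and of 0.20 under the strongest rescaling. The 4 with a mean of at least 100, *Cd69*, *Cd5*, *Itm2a* and *Egr1*, hold all 3 that were at least 2-fold lower.

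**Figure D1:**
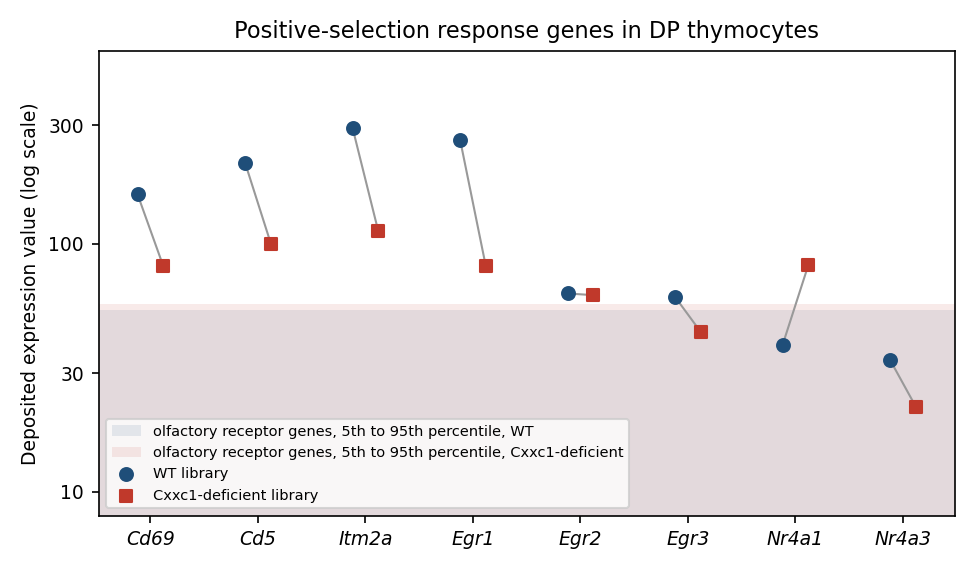
Deposited expression value (log scale) of the 8 selection response genes in the WT library (circles) and the Cxxc1-deficient library (squares), with shading from the 5th to the 95th percentile of 1102 olfactory receptor genes, whose 5th percentile is 0 in both. *Cd69*, *Cd5*, *Itm2a*, *Egr1* and *Egr2* lie above the shading in both libraries, *Egr3* in WT alone, *Nr4a1* in the Cxxc1-deficient library alone and *Nr4a3* in neither.

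Of the surface molecules, *Cd69* encodes a C-type lectin that holds activated cells in the tissue by taking the S1P receptor S1PR1 off the surface. It maps to chromosome 6 of mm9, minus strand, from 129217342 to 129225387. Its value was 158 in WT against 81 in the *Cxxc1*-deficient library, 1.95-fold lower (1.93 to 1.97 by rounding), which is just under the 2-fold threshold. Its log2 ratio of -0.96 lay 0.10 above the median of its range, in which 57.7% of genes had a ratio at least as low. *Cd69* was thus lower to about the extent of other genes of its level, and its ratio was 1.02 under the strongest rescaling.

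*Cd5* encodes a scavenger receptor family glycoprotein that dampens TCR signals, and maps to chromosome 19, minus strand, from 10792633 to 10813464. It had 212 in WT against 100 in the *Cxxc1*-deficient library, 2.12-fold lower (2.10 to 2.14). The log2 ratio of -1.08 differed by -0.02 from the median of its range, and 48.0% of the genes in that range were at least as low. Its paralog *Cd6*, also a receptor of T cells, had 196 and 81, 2.42-fold lower. The 2 neighbouring receptors were both lower in the *Cxxc1*-deficient library, and both lay within 0.21 of the median log2 ratio of their range.

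*Itm2a* encodes a type II membrane protein with a BRICHOS domain that is induced during selection, and maps to chromosome X, minus strand, from 104592438 to 104598715. It was the highest of the 8 genes in both libraries, with 293 in WT against 112 in the *Cxxc1*-deficient library, 2.62-fold lower (2.60 to 2.63). On the log2 scale the ratio of -1.39 lay 0.33 below the median of its range, and 27.3% of the genes in that range were at least as low. Of its relatives, the broadly expressed *Itm2b* had 986 and 534, 1.85-fold lower but with a ratio of 1.08 under the strongest rescaling. The log2 ratio of *Itm2b* lay 0.72 above the median of its range. *Itm2c*, with a mean under 100, had 48 and 40 and a ratio of 1.66 under that rescaling.

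The EGR family consists of zinc finger transcription factors that bind GC-rich sites, and its members differed in these libraries. *Egr1* spans bases 35020861 to 35024638 of chromosome 18. Its value was 263 in WT against 81 in the *Cxxc1*-deficient library, 3.25-fold lower (3.22 to 3.27), the largest fold of the 8 genes on the deposited scale, whereas *Nr4a1* differed by a larger fold under 3 of the 4 rescalings. The log2 ratio of -1.70 lay 0.64 below the median of its range, in which 12.4% of genes were at least as low. The mean of *Egr1* reached this range through its WT value, as 81 in the *Cxxc1*-deficient library is under 100. The share is therefore a description only. The annotation places the antisense gene *Gm17507* over *Egr1*. Whether reads were assigned by strand is not given in the sources used here, so reads of both genes cannot be told apart.

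*Egr2*, on chromosome 10 from 66998223 to 67004936, had 63 in WT against 62 in the *Cxxc1*-deficient library, a ratio of 0.984 (0.969 to 1.00). Both values lie above the level that 95% of olfactory receptor genes did not exceed. Genes of the same range had a median log2 ratio of -0.53, and 82.3% of them had a ratio at least as low. *Egr3*, on chromosome 14 from 70477252 to 70479964, had 61 and 44, 1.39-fold lower (1.36 to 1.41), and its log2 ratio of -0.47 lay 0.06 above the median of its range. Under the strongest rescaling the ratios of *Egr2* and *Egr3* were 1.96 and 1.44. The value of *Egr3* in the *Cxxc1*-deficient library was within the range of olfactory receptor genes. *Egr4* was at that level in both libraries, with 21 in WT against 20 in the *Cxxc1*-deficient library and a ratio of 1.90 under the strongest rescaling. Of the EGR genes above the silent level in both libraries, *Egr1* was thus lower and *Egr2* nearly equal on the deposited scale.

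The NR4A genes encode orphan nuclear receptors, of which Nur77 is a widely used reporter of TCR signals and takes part in the death of strongly signalled thymocytes. *Nr4a1* spans bases 101097277 to 101105223 of chromosome 15. It had 39 in WT against 82 in the *Cxxc1*-deficient library, a ratio of 2.10 (2.06 to 2.14). The WT value was within the range that 95% of olfactory receptor genes did not exceed. The value of the *Cxxc1*-deficient library was above that range but under the highest olfactory receptor value there, 95. Its mean of 60.5 is set by the library in which it was higher, so no share over genes of that range is given. *Nr4a3*, on chromosome 4 from 48058025 to 48099319, had 34 in WT against 22 in the *Cxxc1*-deficient library, 1.55-fold lower (1.49 to 1.60) but with a ratio of 1.29 under the strongest rescaling, and both values were within the range of olfactory receptor genes. The remaining family member, *Nr4a2*, was within that range too, with 37 and 40. *Nr4a1* was thus the only one of the 3 NR4A genes that stood, in either library, above the level that 95% of olfactory receptor genes did not exceed.

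The order of the values was *Itm2a*, *Egr1*, *Cd5*, *Cd69*, *Egr2*, *Egr3*, *Nr4a1* and *Nr4a3* in WT. In *Cxxc1*-deficient cells it was *Itm2a* and *Cd5*, then *Nr4a1* with 82 beside *Egr1* and *Cd69* with 81 each, then *Egr2*, *Egr3* and *Nr4a3*. No replicate spread exists by which neighbours in these orders could be told apart. Levels of different genes are compared on the deposited scale. On this scale the median WT value was 28 for the 4591 genes with the shortest transcripts, whose median length is 1029 bases, and 50 for the 4586 genes with the longest, whose median is 5380 bases, so values grew much less than transcript length. In WT, *Itm2a* exceeded 96.3% and *Egr1* 95.6% of the genes of the table, and in the *Cxxc1*-deficient library *Itm2a* exceeded 94.5% and *Egr1* 90.1%. *Nr4a1* exceeded 54.6% in WT and 90.3% in the other library.

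**Figure D2:**
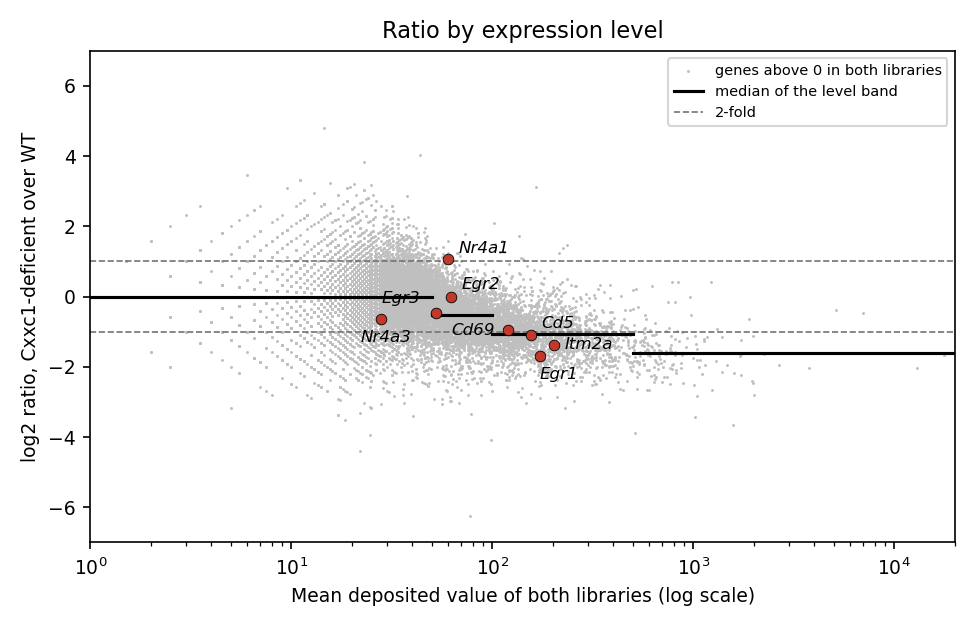
The log2 ratio of Cxxc1-deficient to WT against the mean deposited value of both libraries (log scale), with 1 grey point for each gene above 0 in both, black lines at the median of each range of level, and dashed lines at 2-fold. *Cd69* and *Cd5* lie within 0.10 of the line of their range, *Egr1* 0.64 below it, and *Nr4a1* above the upper dashed line.

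Reads were 50 bases long and only uniquely mapped reads were kept, so a gene with copies elsewhere in the genome loses reads. All 50-base windows of the annotated exons of *Cd69*, *Cd5*, *Itm2a*, *Egr1*, *Egr2*, *Egr3* and *Nr4a1* occur once in the NCBIM37 genome, the build of mm9, and 99.7% of those of *Nr4a3* do. The share was 49.8% for *Gapdh*, a gene with many processed copies. *Gapdh* is listed at 6 in WT against 10 in the *Cxxc1*-deficient library, below the olfactory receptor medians of 22 and 24. The part of mapping in its low values was not tested. The paralogs among the 8 genes therefore share almost no exact stretch of read length.

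Proteins with a CXXC finger, Cxxc1 among them, recognise CpG that carries no methyl group. The CpG content of the start sites is shown as a description, and its part in the direction of any gene was not tested. RefSeq windows on GRCm38.p6 were at hand for 5 of the 8 genes, namely *Nr4a1*, *Nr4a3*, *Egr2*, *Cd5* and *Itm2a*, and not for *Cd69*, *Egr1* and *Egr3*. The 250 bases before the start are printed 5′ to 3′ on the strand of the gene for those with 1 annotated start, with CpG in capitals.
Nr4a1, chr15:101266596-101266845, plus strand: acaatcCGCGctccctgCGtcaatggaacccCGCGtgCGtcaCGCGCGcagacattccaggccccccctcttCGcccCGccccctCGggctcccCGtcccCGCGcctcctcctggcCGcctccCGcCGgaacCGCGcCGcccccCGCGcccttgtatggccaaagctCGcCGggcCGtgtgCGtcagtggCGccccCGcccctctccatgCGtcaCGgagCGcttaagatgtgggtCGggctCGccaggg
Nr4a3, chr4:48045055-48045304, plus strand: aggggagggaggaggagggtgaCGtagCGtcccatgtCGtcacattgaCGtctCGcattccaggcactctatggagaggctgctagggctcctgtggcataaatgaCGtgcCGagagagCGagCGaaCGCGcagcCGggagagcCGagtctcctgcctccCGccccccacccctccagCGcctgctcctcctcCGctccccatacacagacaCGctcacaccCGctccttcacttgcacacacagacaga
Cd5, chr19:10738975-10739224, minus strand: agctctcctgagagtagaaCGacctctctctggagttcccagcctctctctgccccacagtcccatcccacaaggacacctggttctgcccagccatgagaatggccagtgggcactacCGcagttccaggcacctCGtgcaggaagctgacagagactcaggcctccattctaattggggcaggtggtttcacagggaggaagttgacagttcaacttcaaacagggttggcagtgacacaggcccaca
Itm2a, chrX:107403361-107403610, minus strand: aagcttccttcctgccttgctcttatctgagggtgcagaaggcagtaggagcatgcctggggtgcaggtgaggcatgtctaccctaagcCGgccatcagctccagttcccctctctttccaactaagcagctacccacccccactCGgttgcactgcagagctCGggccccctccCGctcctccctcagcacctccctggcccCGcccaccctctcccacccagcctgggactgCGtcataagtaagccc

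The window of *Nr4a1*, the gene that was higher, holds 34 CpG, and 97.0% of the 32851 mouse windows have no more than that. *Nr4a3*, which was lower as deposited, holds 18 CpG. *Cd5* and *Itm2a*, which were lower, hold 3 and 6, and the median window holds 6. The 5 annotated starts of *Egr2* have 15 to 26. The core of the cyclic AMP response element, TGACG on either strand, is found 4 times before *Nr4a1* and 4 times before *Nr4a3*, once before *Itm2a*, before 3 of the 5 starts of *Egr2* and not before *Cd5*, and in 17.8% of all windows. The site bound by EGR factors, GCGNGGGCG on either strand, is found 60 bases before the start of *Nr4a1* and in 4.70% of all windows. A CArG box, the core of the serum response element, is found before 4 of the 5 starts of *Egr2*, whose windows overlap in part, and in 1.47% of all windows. The whole element TGACGTCA (1.55% of all windows), the AP-1 site TGANTCA (6.75%) and the NR4A site AAAGGTCA (1.34%) were not found in the windows of these 5 genes. NFAT cores, TGGAAA, were found before *Itm2a* and 1 start of *Egr2* and in 18.6% of all windows, and the letters TATAAA were found before none of the 5 and in 12.4%. The longer motif of the cyclic AMP response element contains this core. A match is a description of the letters and not of binding.

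Other genes of the response were followed in 4 lists of 67 genes. Of these, 20 were lower and 6 higher by at least 2-fold, beside 17.4% and 5.89% of all genes, with a median log2 ratio of -0.37. Under the strongest rescaling these counts were 3 and 22. Among the 12 relatives and partners of the EGR and NR4A factors, 9 were lower, 5 by at least 2-fold, and 3 were higher, with a median log2 ratio of -0.87, whereas the strongest rescaling left 5 lower and 7 higher with a median of 0.13. *Id3*, an inhibitor of E proteins that EGR1 induces during selection, had 302 in WT against 94 in the *Cxxc1*-deficient library, 3.21-fold lower. Of the ETS partners of serum response factor, *Elk4* had 609 and 227, 2.68-fold lower. *Elk3* had 181 and 87, 2.08-fold lower, with a ratio of 0.959 under the strongest rescaling. Of the factors that act on *Nr4a1* and other immediate early genes, *Creb1* had 359 and 120, 2.99-fold lower, and *Mef2a* had 754 and 262, 2.88-fold lower. *Id3*, *Elk4*, *Creb1*, *Elk3* and *Mef2a* differed by -0.62, -0.36, -0.52, 0.00 and 0.08 from the median log2 ratio of their ranges. *Mef2d*, whose product binds the *Nr4a1* promoter, had 310 and 363, a ratio of 1.17, and lay 1.29 above the median log2 ratio of its range. The *Egr1* target and the inducing factors with a mean of at least 100 were thus lower apart from *Mef2d*, and each kept its direction under all 7 settings given at the end.

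Of the 5 other paralogs, which include lectins of the *Cd69* region, all 5 were lower, 3 by at least 2-fold, with a median log2 ratio of -1.27, and 3 were lower under the strongest rescaling. Of the 32 other TCR-induced and maturation genes, 20 were lower, 11 higher and 1 equal, with 7 lower and 1 higher by at least 2-fold and a median log2 ratio of -0.26, whereas the strongest rescaling left 7 lower and 25 higher. *Cd28*, which encodes the costimulatory receptor, had 1816 in WT against 393 in the *Cxxc1*-deficient library, 4.62-fold lower. *Slfn2*, a gene of T-cell quiescence, had 195 and 42, 4.64-fold lower, and *Dusp2*, a phosphatase of ERK, had 236 and 90, 2.62-fold lower. *Nfkbia*, the inhibitor of NF-κB, had 280 and 137, 2.04-fold lower, with a ratio of 0.976 under the strongest rescaling. *Gata3*, a factor of the CD4 lineage, had 153 and 101, and *Nfatc1* and *Klf6* were each 1.20-fold lower, but all 3 were higher under the strongest rescaling. *Tox*, a factor needed for CD4 lineage development, had 287 and 300, and *Tnfaip3*, a brake on NF-κB, had 389 and 381, with ratios of 2.09 and 1.95 under that rescaling. *Myc* was the gene at least 2-fold higher, with 91 in WT against 192 in the *Cxxc1*-deficient library. The list held genes with both directions. *Tox* and *Tnfaip3* lay 1.13 and 1.03 above the median log2 ratio of their range, and *Gata3*, *Nfatc1* and *Klf6* lay 0.46, 0.80 and 0.80 above it. *Cd28*, *Slfn2*, *Dusp2* and *Nfkbia* differed by -0.60, -1.15, -0.33 and 0.03 from the median of their ranges.

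Immediate early genes that tissue handling can also induce were listed separately, because *Egr1*, *Egr2*, *Egr3* and *Nr4a1* share this property. Of these 18 genes, 5 were lower and 5 higher by at least 2-fold, beside 17.4% and 5.89% of all genes, with a median log2 ratio of -0.24. The strongest rescaling left 1 lower and 8 higher by that much, beside 3.51% and 37.2% of all genes, with a median of 0.75. *Fos* had 39 in WT against 166 in the *Cxxc1*-deficient library, a ratio of 4.26. *Jun*, its partner in AP-1, had 67 and 161, a ratio of 2.40, and *Dusp1*, a phosphatase of MAP kinases, had 127 and 303, a ratio of 2.39. The others at least 2-fold higher were *Fosb*, with 32 and 69, and *Junb*, with 31 and 69, which are named after their values were seen. The WT values of *Fos*, *Fosb* and *Junb* were within the range of olfactory receptor genes, 95% of which did not exceed 54 in WT. *Zfp36*, whose product destabilises short-lived mRNA, had 1006 and 285, 3.53-fold lower, and *Zfp36l1* had 122 and 102, which was lower here and higher under the strongest rescaling. The antiproliferative genes *Btg1* and *Btg2* were 2.05-fold and 2.08-fold lower, with ratios of 0.974 and 0.958 under the strongest rescaling. *Zfp36*, *Btg1* and *Btg2* differed by -0.21, 0.57 and 0.00 from the median log2 ratio of their ranges. The others at least 2-fold lower were *Ier2*, with 32 and 9, and *Hspa8*, with 39 and 9, also named after their values were seen. All 4 of these values were within the range of olfactory receptor genes. *Nr4a1*, *Fos*, *Jun*, *Fosb*, *Junb* and *Dusp1* were thus higher in the library in which *Egr1*, *Zfp36*, *Btg1*, *Btg2*, *Ier2* and *Hspa8* were lower. The list held both directions, and the part of cell handling in either was not tested.

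**Figure D3:**
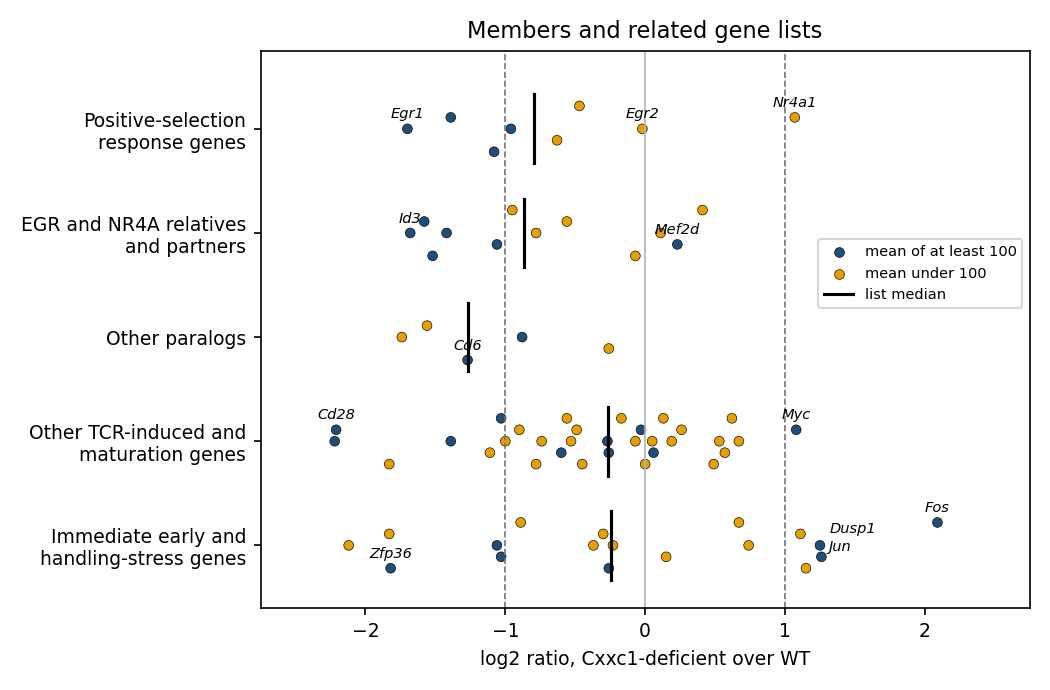
The log2 ratio of Cxxc1-deficient to WT for each of the 8 selection response genes and of 67 genes in 4 related lists, with blue points for genes with a mean of at least 100, orange points for lower means, a black bar at the median of each list and dashed lines at 2-fold; vertical scatter within a list carries no value. The medians run from -1.27 for the other paralogs to -0.24 for the immediate early genes, whose points reach 2.09 at *Fos*.

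Markers of other cells differed together with these values. Of 8 genes of the DN stage, the double-negative stage before DP, 7 were higher in the *Cxxc1*-deficient library. Only 2 of the 8 were at least 2-fold higher, beside 5.89% of all genes. The summed value of the 8 was 331 in WT against 635 in the *Cxxc1*-deficient library. *Il2ra* had 63 and 207, a ratio of 3.29, and *Notch3* had 56 and 167, a ratio of 2.98. Both reached the mean of 100 at which markers are named only through the library in which they were higher. The remaining 6 DN genes lay from 28 to 41 in WT, within the range of olfactory receptor genes. Their means were under 50, where the median log2 ratio of all genes was 0.00. Of 8 genes of mature single-positive cells, 3 were lower and 5 higher, with sums of 3176 and 995, most of which came from *Ccr9*, also a gene of DP cells, with 2614 and 583. *Foxo1*, a factor of naive T-cell genes that is also in this list, had 199 and 86. Sums of the other lists were 233 in WT against 164 in the *Cxxc1*-deficient library for 7 B cell genes, of which 6 were lower as deposited and 6 higher under the strongest rescaling, 297 and 343 for 9 genes of macrophages and dendritic cells, 164 and 210 for 7 genes of NK, innate lymphoid and gamma-delta T cells, 104 and 129 for 4 erythroid genes above 0, and 188 and 179 for 8 genes of thymic epithelium and stroma. *Itgam* was the gene of these 5 lists with a mean of at least 100, with 101 and 107. The defining erythroid genes *Hba-a1*, *Hba-a2* and *Hbb-b2* are listed at 0 in both. The part of DN cells in the values of *Egr1*, *Nr4a1* and the other selection response genes was not tested. The methods name a flow cytometer for cell sorting without naming these libraries, so how far DN cells were removed from them is not known.

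The direction of *Cd5*, *Itm2a* and *Egr1* (lower) and of *Nr4a1* (higher) was the same under 7 other scalings, pseudocounts or backgrounds. Ratios ran from 0.400 to 0.941 for *Cd5*, from 0.325 to 0.763 for *Itm2a*, from 0.237 to 0.615 for *Egr1* and from 1.88 to 4.20 for *Nr4a1*. *Cd69* was lower in 6 of the 7, with the exception of the strongest rescaling. The direction of *Egr2*, *Egr3* and *Nr4a3* depended on the setting, with ratios from 0.927 to 1.96 for *Egr2* from 0.513 to 1.44 for *Egr3* and from 0.0833 to 1.29 for *Nr4a3*, whose lowest ratio rests on the floor of 1. Under the strongest rescaling, 3.51% of all genes were lower and 37.2% higher by at least 2-fold, in place of 17.4% and 5.89%, and 0 of the 8 genes were at least 2-fold lower.

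**Figure D4:**
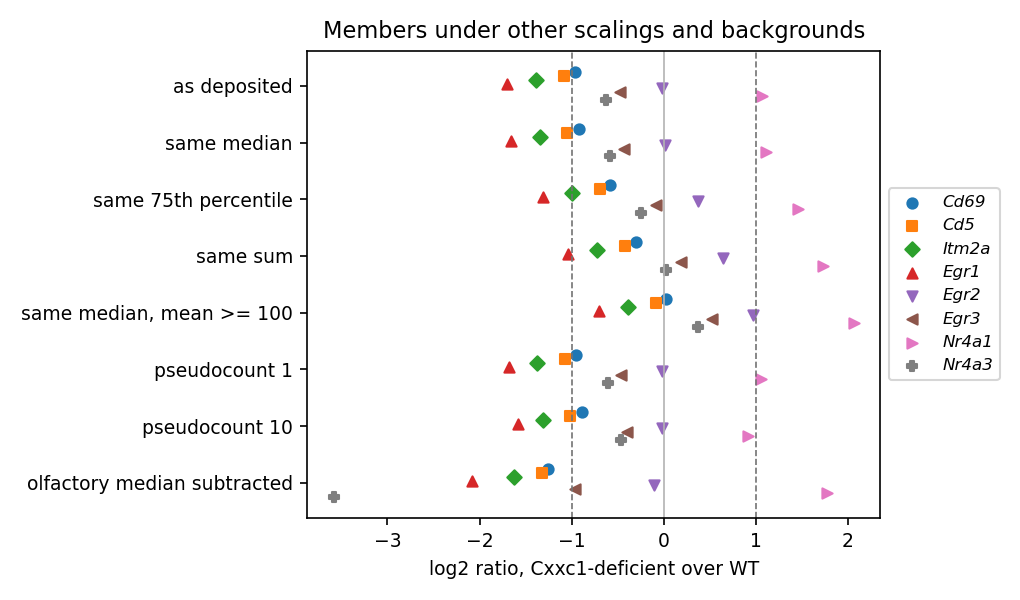
The log2 ratio of Cxxc1-deficient to WT for the 8 selection response genes (symbols) as deposited and under 4 scalings of the libraries, 2 pseudocounts and subtraction of the olfactory receptor median, with dashed lines at 2-fold. *Egr1* stays to the left of 0 and *Nr4a1* to the right in all 8 settings, and the point of *Nr4a3* after subtraction rests on the floor of 1 in the Cxxc1-deficient library.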

How the data were processed

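mRNA-seq was analysed for 2 samples, DP thymocytes from 1 WT and 1 *Cxxc1*-deficient library, grouped by their titles. The authors sequenced 50 bp reads, called bases with CASAVA 1.8.2, mapped them to mm9 and carried only uniquely mapped reads into Partek Genomic Suite; Bowtie 1.0.1 is named in the submitters' processing notes. Each gene has 1 deposited score per library, which the authors normalized and rounded to a whole number, without read counts, so depth and its precision are unknown. The unit and gene annotation are not given in the sources used here.

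Ratios were taken between deposited values raised to at least 1, over genes above 0 in at least 1 library, at a threshold of 2-fold. With 1 library per genotype no test was run. Members, lists and ranges of level were chosen with earlier results of these data known. Genes named were the 8 members, *Cxxc1*, listed genes with a mean of at least 100, *Egr4*, *Nr4a2*, *Cd6*, the nearest gene to each member with a mean of at least 100, and marker genes with a mean of at least 100 or at 0. *Itm2c*, *Gapdh*, *Fosb*, *Junb*, *Ier2* and *Hspa8* were named after their values were seen. A mean of at least 100 can rest on 1 library. It did so for *Fos*, *Jun*, *Myc*, *Il2ra* and *Notch3* in the *Cxxc1*-deficient library, and for *Cd69*, *Egr1*, *Id3* and *Slfn2*, among others, in WT. *Ighm*, *Adgre1* (listed as *Emr1*) and *Tcrg-C1* found no row by symbol. A gene of this rule is not reported here. Positions came from GENCODE vM1 on NCBIM37, matched by symbol for 19090 of 21041 genes, and promoter windows from RefSeq on GRCm38.p6; coordinates of these builds were not mixed. Alternatives were 4 scalings, pseudocounts of 1 and 10, subtraction of the olfactory receptor median, thresholds of 1.5 and 3, and 2 filters. Python 3.11.15, numpy 2.4.6, pandas 2.3.3, numba 0.67.0 and matplotlib 3.10.9 were used.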

Additional observations from a re-analysis of the deposited data

How the results depend on the processing

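As deposited, 3 of the 8 genes were at least 2-fold lower, 7 were lower, their median log2 ratio was -0.80, 17.4% of all genes and 20 of the 67 genes in the related lists were at least 2-fold lower. With the same sum these values were 1 of 8, 4 of 8, -0.14, 5.67% and 8 of 67. With equal medians of the genes whose mean is 100 or more they were 0, 3, 3.51% and 3, and the median log2 ratio of the 8 genes reversed to 0.20, which follows from the factor of 2.0 on the *Cxxc1*-deficient library. With the same 75th percentile the median log2 ratio was -0.41, 8.86% of all genes and 13 listed genes were at least 2-fold lower, and with medians of genes above 0 in both libraries set equal the median log2 ratio was -0.76. A pseudocount of 10 gave -0.67 and 11.5%. Subtraction of the olfactory receptor median gave 5 of 8 genes, -1.29 and 37.4%. At 1.5-fold 5 of the 8 genes and 31.9% of all genes were lower, and at 3-fold 1 of the 8, 6.30% and 8 listed genes. *Nr4a1* was the gene at least 2-fold higher in each scaling, and had 1.88-fold with a pseudocount of 10. No paired analysis was possible because there is only 1 sample of each genotype and nothing was tested. Unknown read numbers limit the precision of genes near the silent level, such as *Egr3* and *Nr4a3*.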

Other observations

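The genes with values nearest to those of the better expressed selection response genes were found by the Euclidean distance of both log2 values, which over 2 libraries is a weak measure of likeness. The nearest to *Cd69* was *Cry1*, with 160 in WT against 81 in the *Cxxc1*-deficient library, and the nearest to *Cd5* was *D15Ertd621e*, with 213 and 100. The nearest to *Egr1* were *Med20* and *Tmem263*, each with 266 and 78, and the nearest to *Itm2a* was *Baz1b*, with 293 and 110. Within a distance of 0.1 there were 44 genes for *Cd69*, 43 for *Cd5*, 27 for *Itm2a* and 15 for *Egr1*.

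Over 1043 genes whose mean was at least 100 and that had 15 or more CpG in the 250 bases before their start, the median log2 ratio was -1.09. It was -1.03 over 360 genes with 5 to 14 CpG and -1.05 over 86 genes with 0 to 4, with quartiles from -1.57 to -0.64 in the last group. Among well-expressed genes with 1 window in RefSeq, the medians of the 3 groups thus lay within 0.06 of each other.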
